A study of Mus musculus with 12 samples.

Results

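The regions described here carried a peak of H3K4me3 in C2C12 myotubes and none in C2C12 myoblasts. They were the intervals that the peak caller had given for the myotube H3K4me3 library on chromosomes 1 to 19, sharing no base with a myoblast H3K4me3 interval, holding at least 15 myotube reads, and with a depth-scaled read count at least 3 times that of myoblasts after 1 read had been added to each count. Of 17495 myotube intervals, 5364 (30.7%) shared no base with a myoblast interval, and 1249 of these met the rule, which was 7.14% of all myotube intervals. They are called myotube-only regions below. The other myotube intervals were 12131 that shared bases with a myoblast interval (shared intervals) and 4115 that did not but missed the read or fold limit. The regions were thus chosen by the H3K4me3 counts of both cell types, which are given as a description and carry no test.

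C2C12 is a myoblast line from C3H mice that fuses into multinucleate myotubes when serum is withdrawn. Myoblasts (mb) were taken near confluence in medium with 10% serum, and myotubes (mt) about 5 days after serum withdrawal, when light trypsin treatment had separated them from unfused cells; both came from passages 15 to 18. Chromatin from each was immunoprecipitated for 6 histone marks (H3K4me3, H3K4me2, H3K4me1, H3K36me3, H3K27ac and H3K27me3), and the 12 libraries, 1 for each mark and cell type, held 1858771 to 7033100 mapped reads of 34 bp. The H3K4me3 libraries held 2774474 reads in myoblasts and 3298694 in myotubes. With no replicates, each comparison below is between 2 libraries, and no p-value is given. The intervals in parentheses are 95% limits. Beside a single region, a single gene or pooled reads they are for counting error only. Beside a median they are order-statistic limits of that median over regions or genes. Neither kind covers variation between cultures. In bulk chromatin, a mark carried by more cells and more of a mark per cell cannot be told apart.

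Nucleosomes at the starts of transcribed genes usually carry H3K4me3 and H3K27ac, with H3K4me2 spreading farther and H3K4me1 strongest at enhancers and on the flanks of promoters. H3K27me3 is laid down by Polycomb repressive complex and marks silent developmental genes, while H3K36me3 is added behind elongating RNA polymerase and covers the bodies of transcribed genes. Muscle differentiation is driven by MYOD-family factors, which bind E-boxes (CANNTG, often CAGCTG in muscle), together with MEF2 proteins and, at actin genes, with serum response factor at CArG boxes.

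The deposited myoblast peak lists for H3K27ac and H3K27me3 were each filed with the other mark's library. Intervals of the list filed with the H3K27me3 library held 36.4 times the genome-wide mean of H3K27ac reads and 0.804 times that of H3K27me3 reads. The list filed with the H3K27ac library held 6.76 times the mean of H3K27me3 reads and 0.588 times that of H3K27ac reads. Each list was therefore assigned to the mark whose reads it held, and read counts were not affected. The myotube H3K4me1 list was made of narrow intervals (median 117 bp, with 8.59% of that library's reads), so overlap with it is a stricter criterion than with the other lists.

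Sequences of the strongest regions are shown first, since letters in them are counted over all regions further on. The 4 genes are those of the muscle gene lists with most myotube H3K4me3 reads in their region, Kbtbd10, Lmod2, Mybph and Acta1, and each promoter runs from 200 to 1 bases before the annotated transcription start site (TSS), 5′ to 3′ on the gene's strand, in build mm9. Capitals mark CAGCTG, the letters TATAAA, and matches to the MEF2 and CArG motifs on either strand.
Kbtbd10 promoter (chr2:69507977-69508176, plus strand): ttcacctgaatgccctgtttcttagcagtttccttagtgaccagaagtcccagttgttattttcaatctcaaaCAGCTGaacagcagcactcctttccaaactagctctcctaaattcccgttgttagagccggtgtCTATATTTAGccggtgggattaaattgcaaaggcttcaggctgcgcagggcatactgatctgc
Lmod2 promoter (chr6:24547571-24547770, plus strand): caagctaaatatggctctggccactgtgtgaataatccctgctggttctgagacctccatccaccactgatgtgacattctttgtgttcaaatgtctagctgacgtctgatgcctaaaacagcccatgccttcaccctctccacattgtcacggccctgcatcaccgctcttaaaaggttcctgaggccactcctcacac
Mybph promoter (chr1:136089825-136090024, plus strand): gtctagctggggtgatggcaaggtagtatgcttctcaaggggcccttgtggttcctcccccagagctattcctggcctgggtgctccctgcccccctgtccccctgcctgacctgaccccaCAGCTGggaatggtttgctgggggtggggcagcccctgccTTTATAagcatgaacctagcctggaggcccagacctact
Acta1 promoter (chr8:126418652-126418851, minus strand): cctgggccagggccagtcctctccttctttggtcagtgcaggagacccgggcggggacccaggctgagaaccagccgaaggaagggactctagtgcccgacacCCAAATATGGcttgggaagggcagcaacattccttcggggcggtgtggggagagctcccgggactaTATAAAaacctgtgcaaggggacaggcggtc
The Kbtbd10 promoter held a CAGCTG and a MEF2 match, the Mybph promoter a CAGCTG and a TATAAA on the opposite strand, and the Acta1 promoter a CArG match and a TATAAA. None of these letters was found in the 200 bases shown for Lmod2.

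The middle of a region lay mostly inside the gene. The next sequences are the central 300 bases of the same 4 regions, followed by the 2 regions with most reads among those farther than 5 kb from any TSS, which are named after the nearest TSS (Nav2 and the noncoding Gm12926); all are on the plus strand of mm9 with the same capitals.
Kbtbd10 centre (chr2:69509642-69509941, plus strand): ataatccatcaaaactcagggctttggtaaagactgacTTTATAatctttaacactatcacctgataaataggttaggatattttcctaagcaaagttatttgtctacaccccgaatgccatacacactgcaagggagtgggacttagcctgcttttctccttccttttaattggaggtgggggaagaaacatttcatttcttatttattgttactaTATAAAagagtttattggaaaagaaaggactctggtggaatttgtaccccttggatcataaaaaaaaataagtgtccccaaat
Lmod2 centre (chr6:24550107-24550406, plus strand): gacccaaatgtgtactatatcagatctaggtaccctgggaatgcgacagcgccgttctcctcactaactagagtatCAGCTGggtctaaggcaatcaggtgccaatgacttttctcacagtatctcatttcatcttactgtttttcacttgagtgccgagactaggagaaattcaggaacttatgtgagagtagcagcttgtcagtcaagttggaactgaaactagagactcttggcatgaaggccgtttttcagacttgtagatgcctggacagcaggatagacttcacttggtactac
Mybph centre (chr1:136093619-136093918, plus strand): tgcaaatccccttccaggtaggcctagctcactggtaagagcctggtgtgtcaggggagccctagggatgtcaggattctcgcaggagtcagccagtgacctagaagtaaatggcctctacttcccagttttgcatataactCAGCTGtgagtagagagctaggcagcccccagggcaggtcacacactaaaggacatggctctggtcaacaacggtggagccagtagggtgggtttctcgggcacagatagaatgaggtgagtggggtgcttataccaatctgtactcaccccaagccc
Acta1 centre (chr8:126417451-126417750, plus strand): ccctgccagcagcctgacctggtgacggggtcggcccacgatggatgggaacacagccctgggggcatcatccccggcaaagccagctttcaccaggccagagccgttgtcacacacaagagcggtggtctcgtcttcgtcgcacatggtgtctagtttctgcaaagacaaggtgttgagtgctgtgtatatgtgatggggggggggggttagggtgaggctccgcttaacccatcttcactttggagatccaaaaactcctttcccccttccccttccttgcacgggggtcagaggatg
Nav2 centre (chr7:56629040-56629339, plus strand): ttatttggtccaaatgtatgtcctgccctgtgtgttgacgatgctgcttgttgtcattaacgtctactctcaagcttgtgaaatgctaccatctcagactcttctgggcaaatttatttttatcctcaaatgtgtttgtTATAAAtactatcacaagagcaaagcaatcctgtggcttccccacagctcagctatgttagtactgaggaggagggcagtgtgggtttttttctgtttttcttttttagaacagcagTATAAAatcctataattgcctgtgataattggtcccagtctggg
Gm12926 centre (chr4:123289479-123289778, plus strand): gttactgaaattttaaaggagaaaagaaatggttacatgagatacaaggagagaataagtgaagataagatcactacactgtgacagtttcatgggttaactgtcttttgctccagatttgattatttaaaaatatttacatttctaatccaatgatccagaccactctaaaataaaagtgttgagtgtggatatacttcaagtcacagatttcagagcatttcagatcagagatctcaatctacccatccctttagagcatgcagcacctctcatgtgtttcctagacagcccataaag
The centres of the Kbtbd10, Lmod2, Mybph and Acta1 regions lay 1615, 2486, 3744 and 1050 bp downstream of the TSS. The Nav2 and Gm12926 regions ended 5855 and 15542 bp from the nearest TSS.

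Most myotube-only regions were not at annotated promoters. With the distance taken from the nearest edge of the region to any GENCODE M1 TSS, 347 regions (27.8%) lay within 1 kb, of which 275 (22% of all) spanned a TSS, while 242 (19.4%) lay between 1 and 5 kb and 660 (52.8%) lay farther than 5 kb away. Of the shared intervals, 86.3% lay within 1 kb of a TSS and 9.41% beyond 5 kb. The name of promoter-like regions therefore applied to the 347, which are called TSS regions below, and the 660 are called distal regions. The intervals seen in myotubes that missed the rule had still fewer at a TSS, 13.8%. Among the 129 myotube-only regions with at least 100 reads, 92 were TSS regions and 26 distal, whereas among the 731 with under 30 reads 450 were distal.

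The TSS regions lay near 327 distinct genes, and for 304 of them the nearest TSS was that of a protein-coding gene. In 282 of 347 (81.3%) the midpoint was downstream of the TSS, by a median of 580 bp over all 347. The distal regions had a median distance of 19148 bp from a TSS and a largest of 512183 bp. By their midpoints, 51.7% were in introns and 45.3% outside genes. A TSS region within 100 kb was found for 96 distal regions (14.5%), compared with 75 of 1141 distal shared intervals (6.57%).

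The base composition of the regions differed from that of most promoters. Over 1 kb around the midpoint, the ratio of observed to expected CpG had a median of 0.209 in myotube-only regions and 0.656 in shared intervals, and GC content was 47% and 55.8%. A ratio under 0.4 was found in 93% of myotube-only regions and in 86.2% of the TSS regions, compared with 13.7% of shared intervals within 1 kb of a TSS and 55.9% of distal shared intervals. Low CpG content was therefore found in TSS and distal regions alike, and the intervals of myotubes that missed the rule had a similar median of 0.219.

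**Figure D1:**
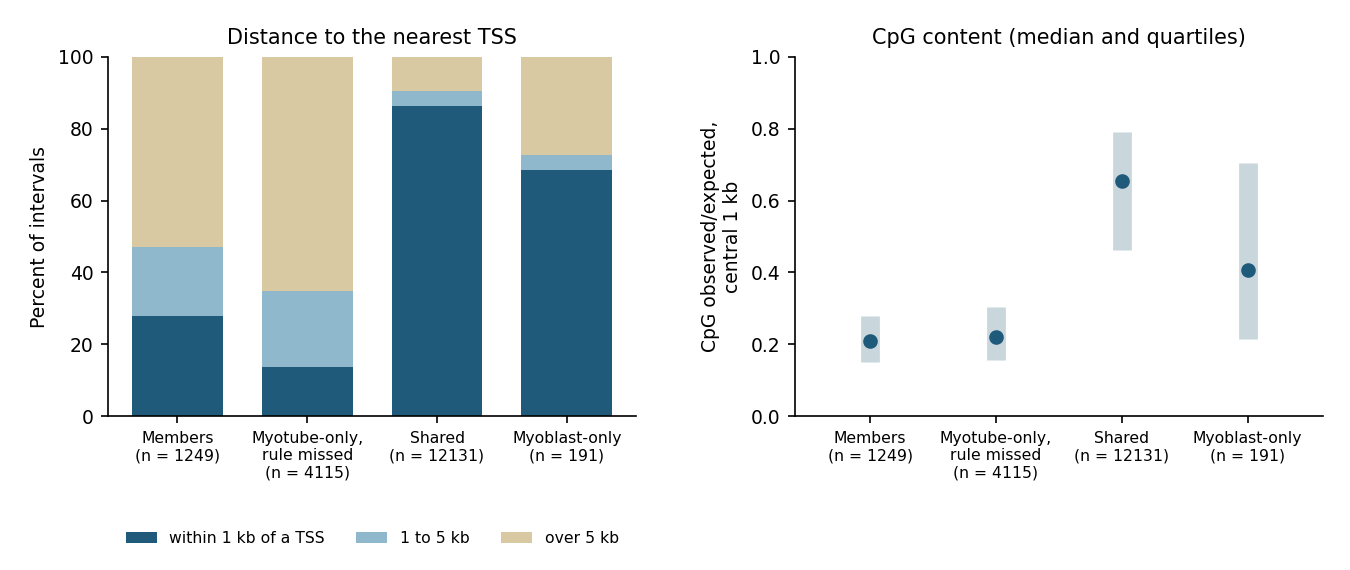
Distance to the nearest TSS and CpG content of H3K4me3 intervals. Myotube-only regions (members) had 27.8% within 1 kb of a TSS, against 86.3% of shared intervals, and a median CpG ratio of 0.209, against 0.656.

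The regions had a median width of 1586 bp (460 to 9885 bp), with 2178 bp for TSS and 1449 bp for distal regions. They held a median of 26 myotube H3K4me3 reads (15 to 561) and 3 myoblast reads (0 to 48), with no myoblast read in 84. The value used by the rule had a median of 5.68. The 3 regions just inside the fold limit, nearest to Nrp2, Has2as and Gm16225, had 6 myoblast and 24 myotube reads each, and the 3 intervals just outside it, at Aspa, Rpl24 and Fgd2, had 8 and 31. Just inside the read limit were regions nearest to Gm10561, Gm8330 and Tmem107, each with 3 myoblast and 15 myotube reads, and just outside were intervals nearest to 9530036M11Rik, Mir1968 and Kbtbd5, each with 0 and 14.

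Absence of a called myoblast interval did not mean absence of H3K4me3 reads or of a neighbouring interval. Expressed as reads per base over the library's mean, H3K4me3 in myoblasts had a median of 1.9-fold over the regions. A myoblast H3K4me3 interval lay within 1 kb of 72 regions (5.76%) and within 5 kb of 232 (18.6%). This was most common for the regions 1 to 5 kb from a TSS, of which 125 of 242 (51.7%) had one within 5 kb, and least common for distal regions, with 51 of 660 (7.73%).

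H3K27ac and H3K4me2, neither of which was used by the rule, were higher in myotubes at most regions. The median H3K27ac level was 4.15-fold over the library mean in myoblasts and 23.4-fold in myotubes, and that of H3K4me2 was 5.18-fold and 18.4-fold. The median myotube to myoblast ratio was 4.15 (3.93–4.52) for H3K27ac and 3.21 (2.89–3.48) for H3K4me2. The 95% order-statistic limits are of the median over regions and do not cover replicates. Quartiles over regions were 1.97 and 8.65 for H3K27ac and 1.64 and 7.22 for H3K4me2. Taking as higher a ratio of at least 2 whose counting interval lay above 1, 875 regions (70.1%) were higher in H3K27ac, compared with 15.5% of all myotube H3K4me3 intervals, and 829 (66.4%) in H3K4me2, compared with 13.2%. Taking as lower a ratio of at most 0.5 with an interval below 1, 13 regions (1.04%) were lower in H3K27ac and 12 (0.961%) in H3K4me2, against 25.3% and 20.9% of all intervals. Of the 4115 myotube intervals that missed the rule, 31.7% were higher and 5.64% lower in H3K27ac, and 29.3% and 8.43% in H3K4me2. Those intervals held fewer reads, with myotube medians of 26 for H3K27ac and 21 for H3K4me2, against 73 and 54 in the regions. A call depends on the reads counted, and the part of this in the shares was not tested. At shared intervals the median ratios were below 1, at 0.603 for H3K27ac and 0.67 for H3K4me2.

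The other marks changed less. H3K4me1 was 6.51-fold over the mean in myoblasts and 10.1-fold in myotubes, with a median ratio of 1.39 (1.3–1.5); 404 regions (32.3%) were higher and 55 (4.4%) lower, against 11.7% and 8.31% of all intervals. H3K27me3 was close to its library mean in both cell types, at 0.905-fold and 0.887-fold, and with a median of 4 myoblast reads per region it could not be compared well region by region: 23 (1.84%) were higher and 64 (5.12%) lower, against 0.777% and 1.94%. H3K36me3 had medians of 1.33-fold and 1.56-fold, with 152 regions (12.2%) higher and 71 (5.68%) lower, against 2.26% and 5.69%.

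**Figure D2:**
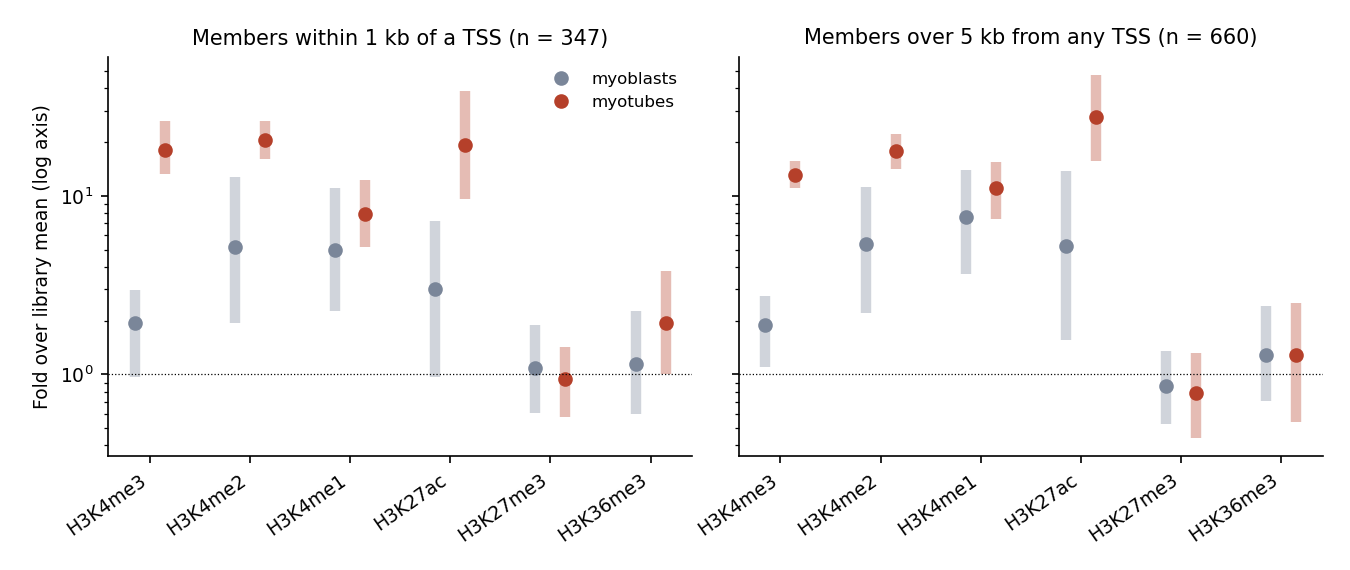
Level of each mark over the TSS regions and the distal regions (members) in myoblasts and myotubes, as fold over the library mean. The 242 regions 1 to 5 kb from a TSS are not drawn. Of the marks that the rule did not use, H3K27ac and H3K4me2 moved most. Median H3K27ac went from 3 to 19.3 at TSS regions and from 5.21 to 27.6 at distal regions. Median H3K4me2 went from 5.18 to 20.6 and from 5.39 to 17.9, and H3K27me3 from 1.09 to 0.937 and from 0.862 to 0.785.

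Reads were also summed over all regions. The pooled ratio was 3.69 (3.63–3.76) for H3K27ac, from 14974 reads in myoblasts and 140668 in myotubes, 2.6 (2.57–2.63) for H3K4me2, 1.25 (1.23–1.28) for H3K36me3 and 1.19 (1.17–1.2) for H3K4me1. For H3K27me3 it was 0.753 (0.727–0.78), from 9080 and 4889 reads, and shared intervals had 0.829 (0.818–0.84). The libraries differed in size, which the ratios take into account.

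TSS and distal regions had similar shares with more H3K27ac and H3K4me2 but differed in the summed reads of each mark. H3K27ac was higher in 248 of 347 TSS regions (71.5%) and in 472 of 660 distal regions (71.5%), and H3K4me2 in 239 (68.9%) and 434 (65.8%). The pooled ratio of H3K27ac was 4.68 (4.53–4.84) over TSS and 3.32 (3.24–3.39) over distal regions. That of H3K4me2 was 2.87 (2.81–2.93) and 2.39 (2.35–2.44), and that of H3K4me1 was 1.22 (1.2–1.25) and 1.15 (1.13–1.17). Limits of pooled ratios leave out the spread over regions. Median ratios per region were 4.72 (4.09–5.56) and 4.15 (3.76–4.72) for H3K27ac, and 3.38 (2.93–4.25) and 2.97 (2.66–3.33) for H3K4me2. Those of H3K4me1 were 1.41 (1.28–1.68) and 1.31 (1.23–1.45), and those of H3K36me3 1.63 (1.54–1.72) and 1.02 (0.932–1.09). The limits of these medians take regions as separate, though some are neighbours, and are not a test between TSS and distal regions. H3K36me3 over TSS regions went from 1.15-fold to 1.95-fold in the median, with 83 (23.9%) higher, and its pooled ratio was 1.75 (1.69–1.82), while over distal regions both medians were 1.28-fold and the pooled ratio was 1 (0.963–1.04). H3K27me3 was lower in 40 TSS regions (11.5%), and its pooled ratio was 0.629 (0.596–0.664) there and 0.83 (0.786–0.878) over distal regions. Distal regions carried more H3K4me1 than TSS regions, with medians of 7.64-fold and 4.99-fold in myoblasts and 11-fold and 7.89-fold in myotubes, and less H3K4me3 in myotubes, 13-fold and 18.1-fold.

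**Figure D3:**
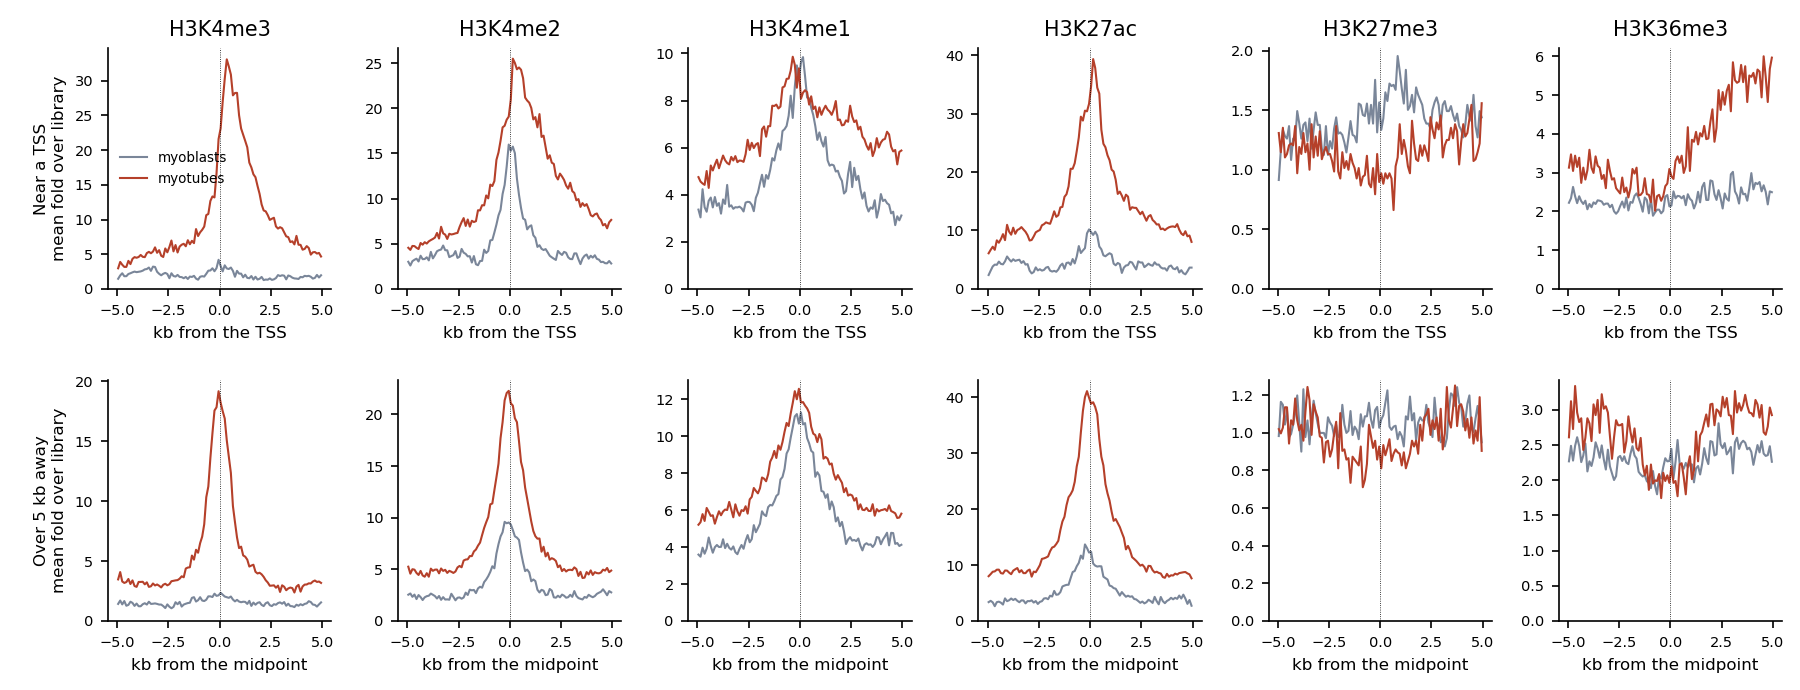
Mean profiles of the marks around the TSS of TSS regions and around the centre of distal regions, in myoblasts and myotubes, drawn in bins of 100 bp. Averaged over 5 bins in myotubes, H3K4me3 at TSS regions was highest at +450 bp (30.8-fold) and H3K27ac at +250 bp (35.9-fold), whereas at distal regions H3K4me1, H3K4me2, H3K4me3 and H3K27ac were highest at the centre.

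The profiles, averaged over 5 bins of 100 bp, placed the higher myotube signal of H3K4me3, H3K4me2 and H3K27ac downstream of the start site. In myoblasts the 4 active marks were each highest in the bin at +50 bp from the TSS, at 3.29-fold for H3K4me3, 9.69-fold for H3K27ac, 15.1-fold for H3K4me2 and 9.37-fold for H3K4me1. In myotubes H3K4me3 reached 30.8-fold at +450 bp, H3K4me2 24.7-fold at +350 bp and H3K27ac 35.9-fold at +250 bp, and the highest bin of H3K4me1 was at −250 bp with 9.31-fold. Within 5 kb of the TSS, H3K36me3 was highest at +4150 bp in myoblasts (2.75-fold) and at +4750 bp in myotubes (5.59-fold). Around the centres of distal regions in myotubes, H3K27ac reached 39.8-fold, H3K4me2 21.5-fold, H3K4me3 18-fold and H3K4me1 12.1-fold.

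Overlap with the peak lists showed which marks already had a called peak in myoblasts. The myoblast H3K27ac library was the smallest, with 1858771 reads against 4725910 in myotubes. The part of depth in missing calls was not tested. A peak of H3K4me1 was overlapped by 807 regions (64.6%) in myoblasts and by 933 (74.7%) in myotubes. For H3K4me2 these were 589 (47.2%) and 1218 (97.5%), and for H3K27ac 479 (38.4%) and 1137 (91%). The shares of shared intervals were 55.4% and 31.8% for H3K4me1, 98.8% and 98.9% for H3K4me2, and 89.1% and 82.2% for H3K27ac. H3K36me3 peaks were overlapped by 153 regions (12.2%) and 210 (16.8%), and by 10.2% and 7.87% of shared intervals. H3K27me3 peaks were overlapped by 28 regions (2.24%) in myoblasts and 2 (0.16%) in myotubes. Of shared intervals, 50 (0.412%) and 4 (0.033%) overlapped one, so both sets had fewer in myotubes. The H3K27me3 list of myotubes had narrower intervals, with a median of 323 bp against 1002 bp in the myoblast list.

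Regions were then sorted by their marks in myoblasts. The 479 regions with a myoblast H3K27ac peak went from a median of 14.6-fold to 39.4-fold in H3K27ac, with a median ratio of 2.16. Another 402 (32.2%) had a myoblast peak of H3K4me1 or H3K4me2 but none of H3K27ac, and these went from 2.96-fold to 19.6-fold, with a ratio of 5.62. Because a myoblast H3K27ac peak sorted these groups, their difference in the H3K27ac ratio is in part built in. The remaining 368 (29.5%) had none of the 3 peaks in myoblasts, and in these, where low myoblast values are built into the sorting, H3K4me1 went from 1.91-fold to 7.63-fold, H3K4me2 from 1.27-fold to 15.4-fold and H3K27ac from 0.927-fold to 13.9-fold. Of those 368, 82.9% overlapped an H3K27ac peak in myotubes. In all, 313 regions (25.1%) overlapped no myoblast peak of any of the 5 other marks.

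The 28 regions in a myoblast H3K27me3 peak were mostly TSS regions (20 of 28), and their median H3K27me3 ratio was 0.361. Because a peak in the myoblast library was required, a lower value in myotubes is in part built into this choice. The region with the highest myoblast level was at Grip2, a scaffold protein of glutamate receptors, with 44 H3K27me3 reads in myoblasts (8.34-fold over the mean) and 4 in myotubes, a ratio of 0.155 (0.0332–0.349). The regions nearest to Eif3d (49 and 14 reads) and Adck3 (50 and 23) were also high. Near Nr2e1, an orphan nuclear receptor of the brain, 33 and 18 reads were counted, and this was the only one of the 28 that also overlapped a myotube peak. Near Mafa, a transcription factor of pancreatic beta cells, 1 region inside a peak had 26 and 8 reads, and another that overlapped no called peak had 51 H3K27me3 reads in myoblasts and none in myotubes, at least 12.2-fold lower when the limit of 3 reads is used for myotubes.

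Lower H3K27me3 was found at some muscle genes and not at most. It was lower at 5 of 25 regions of the thick and thin filament list described below and 2 of 16 of the Z-disc and M-band list. In the turnover and kelch list it was lower at 3 of 11, and in each of the 7 other muscle lists at 0. The share was 1.94% over all myotube H3K4me3 intervals, 5.12% over the 1249 regions and 11.5% over TSS regions. Lower H3K27me3 was thus not particular to the muscle lists. Of those named next, the miR-1 and Acta1 regions overlapped a myoblast H3K27me3 peak, and the Actn2 and Myh3 regions did not. The region over Mir1a-1 and Mir133a-2, the miR-1 and miR-133a genes of chromosome 2 (chr2:180120092-180129103), had 159 H3K27me3 reads in myoblasts and 36 in myotubes, a ratio of 0.323 (0.214–0.457), while H3K4me3 went from 8 to 516 reads and H3K27ac from 5 to 676, a ratio of 44.4 (22.7–164). At Acta1, skeletal muscle α-actin, H3K27me3 went from 86 to 15 reads, with a ratio of 0.257 (0.131–0.425). At Actn2, α-actinin of the Z-disc, it went from 27 to 2 reads, with a ratio of 0.15 (0.0119–0.412), and at Myh3 from 47 to 14, with 0.437 (0.212–0.77). In each the H3K27ac count was higher in myotubes.

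A myotube-only region lay within 5 kb of a TSS of 505 of 21418 protein-coding genes (2.36%). Of these 505 genes, 283 also had a shared interval within 5 kb of a TSS. Such genes thus had H3K4me3 nearby in myoblasts too, though at 5 kb the interval may lie at a neighbouring gene. Among the list genes they included Mef2c, Cdkn1a, Dysf, Ryr1, Tnnc2 and Tnnt2. With 1 kb as the limit for both, 100 of 297 genes with a region had a myoblast interval. In 10 lists of muscle genes, 99 genes had a myotube-only region. Counting the strongest for each gene, these were 97 distinct regions, 7.77% of the 1249. The lists below were assembled with earlier results of these data known, so their counts describe them and are not independent evidence; the values of each region are given as reads in myoblasts and then in myotubes. The lists' H3K27ac counts stand against the 70.1% of all 1249 regions that were higher, and several lie near that share.

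Of the thick and thin filament genes, 26 of 35 (74.3%) had a region within 5 kb. The strongest were Lmod2, a leiomodin that nucleates actin filaments, with 10 and 496 H3K4me3 reads, Mybph, a myosin-binding protein, with 30 and 479, and Acta1 with 17 and 476. Next came slow troponin I (Tnni1, 16 and 397), myosin light chain 1 (Myl1, 14 and 385), fast troponin C (Tnnc2, 12 and 322), cardiac troponin T (Tnnt2, 9 and 310), the fast regulatory light chain Mylpf (11 and 308), Lmod3 (10 and 305) and the embryonic light chain Myl4 (7 and 299). These 10 ranged from 7 to 30 myoblast reads and from 299 to 496 myotube reads, a gap that the choice of regions fixed. H3K27ac was higher at 21 of the 25 distinct regions of the list, with a median ratio of 9.83, and lower at 0, and H3K4me2 was higher at 23. At Lmod2 H3K27ac went from 10 to 683 reads, with a ratio of 24.5 (14.5–56.3), at Acta1 from 20 to 1014, with 19 (12.8–32.8), and at Mybph from 101 to 1164, with 4.49 (3.7–5.61); Mybph had the highest myoblast count of these 3. Tnnc1, Tpm1 and Tpm2 had shared intervals instead, and Myh2, Myh13, Myl3 and Tmod4 had no myotube interval.

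Of the Z-disc and M-band genes, 16 of 29 (55.2%) had one. Myom2, which crosslinks thick filaments in the M-band, had 25 and 420 H3K4me3 reads and 24 and 620 H3K27ac reads. Actn2 had 2 and 66 H3K4me3 reads. Csrp3, the muscle LIM protein, had no read of H3K4me3 or of H3K27ac in myoblasts and 101 and 205 in myotubes, at least 28.3-fold and at least 26.9-fold higher against the limit of 3 reads. At Actn2 H3K27ac had 0 and 221 reads, at least 29-fold higher. At Xirp1, an actin-binding repeat protein, H3K27ac was already present in myoblasts (98 and 479 reads, a ratio of 1.91, 1.54–2.41) where H3K4me3 went from 14 to 217. H3K27ac was higher at 13 of the 16 and lower at 1.

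Calcium handling and excitation genes had 11 of 29 (37.9%). Casq2, a calsequestrin that stores calcium in the sarcoplasmic reticulum, had 7 and 373 H3K4me3 reads, and sarcalumenin (Srl) of the same compartment had 12 and 354. Cacna1s, the calcium channel subunit that senses voltage in the T-tubule, had 5 and 128, triadin (Trdn) 2 and 75, and the release channel Ryr1 5 and 42. H3K27ac at Cacna1s went from 3 to 354 reads, with a ratio of 34.9 (15.8–226), and H3K27ac was higher at 8 of the 11. Of the synapse list, 4 of 14 (28.6%) had a region: Chrng, the fetal acetylcholine receptor γ subunit, with 13 and 156 reads, Colq, the collagen tail of acetylcholinesterase, with 4 and 72, and Ank1 and Dok7. Most of the list, including Chrna1, Chrnd and Musk, had shared intervals only.

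Of the dystrophin complex and membrane repair genes, 7 of 16 (43.8%) had a region. Trim72 (MG53), which seals membrane lesions, had 10 and 252 H3K4me3 reads, dysferlin (Dysf) 11 and 241, and caveolin 3 (Cav3) 3 and 172. H3K27ac was higher at 6 of the 7, and went from 6 to 404 reads at Dysf, with a ratio of 22.8 (12.1–72.6). Of fusion and adhesion genes 3 of 16 (18.8%) had one, and 2 of these are the muscle fusogens: myomaker (Tmem8c) with 2 and 44 H3K4me3 reads, and myomixer (Gm7325) with 15 and 108. All 3 genes also had a shared interval within 5 kb of a TSS. H3K27ac at the Gm7325 region went from 31 to 338 reads, with a ratio of 4.17 (2.96–6.41), and at Tmem8c from 3 to 20, with 2.06 (0.778–13.8).

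Of the myogenic transcription factors and cofactors, 4 of 27 (14.8%) had a region, and 14 had shared intervals only, among them Myod1, Myog, Myf5, Myf6, Mef2a and Mef2d. The 4 were Mef2c (3 and 238 reads), the muscle methyltransferase Smyd1 (12 and 139), Hdac9, a class IIa deacetylase that binds MEF2 (0 and 43), and Tead4 (3 and 22). H3K27ac was higher at all 4. At Mef2c it went from 0 to 135 reads, at least 17.7-fold higher against the limit of 3 reads.

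Energy metabolism genes had 11 of 29 (37.9%). Pgam2, muscle phosphoglycerate mutase, had 0 and 115 H3K4me3 reads, at least 32.2-fold higher, and its rule value was the highest of all regions. Muscle phosphofructokinase (Pfkm) had 8 and 181, glycogen phosphorylase (Pygm) 4 and 93, myoglobin (Mb) 5 and 75, and muscle creatine kinase (Ckm) 2 and 38. H3K27ac was higher at 9 of the 11, and at Mb it went from 1 to 146 reads, with a ratio of 28.9 (10.1–2283). Of the protein turnover and kelch genes 11 of 23 (47.8%) had a region. Kbtbd10, a kelch protein of the sarcomere, had the most reads of all 1249 regions, 15 and 561, with 18 and 615 of H3K27ac, a ratio of 12.8 (8.43–22.8). Trim63 (MuRF1), a ubiquitin ligase of muscle atrophy, had 5 and 235, and the small heat shock protein gene Hspb3 had 9 and 240.

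In the muscle signalling list 6 of 27 (22.2%) had a region. Rbm24, a splicing factor of muscle, had 7 and 304 reads. Cdkn1a (p21), the inhibitor that holds myotubes out of the cell cycle, had 8 and 47, while its H3K27ac went from 3 to 25 reads, with a ratio of 2.56 (1–17). The region beside Mir206 and Mir133b had 2 and 17 H3K4me3 reads and 6 and 44 of H3K27ac, with a ratio of 2.53 (1.22–8.28), far fewer than the Mir1a-1 and Mir133a-2 region. Of 1468 annotated miRNA genes, 21 had a region within 5 kb, and 9 of these had a mature sequence in the RefSeq table (GRCm38.p6). The mature forms given there for miR-206, miR-133b and miR-1a-1, the muscle miRNAs among them, are shown with the seed, bases 2 to 8, in capitals.
mmu-miR-206-3p: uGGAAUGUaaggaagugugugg
mmu-miR-206-5p: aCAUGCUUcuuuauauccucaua
mmu-miR-133b-3p: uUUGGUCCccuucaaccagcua
mmu-miR-133b-5p: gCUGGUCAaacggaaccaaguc
mmu-miR-1a-1-5p: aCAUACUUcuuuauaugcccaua
The 5 printed seeds differ from each other; miR-1a-3p and miR-133a are named only and were not part of that comparison.

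The 7 myotube markers (Myh3, Myh8, Ckm, Acta1, Tnnt3, Casq2 and Ryr1) all had a region, and H3K27ac was higher at all 7, with a median ratio of 14. Myh3, embryonic myosin heavy chain, had 12 and 278 H3K4me3 reads, fast troponin T (Tnnt3) 9 and 268, and Myh8, perinatal myosin heavy chain, 0 and 29. None of the marker genes of adipocytes (5), osteoblasts (4), chondrocytes (3), smooth muscle (3), blood (4) or neurons (4) had one. None of 25 cell cycle genes or 25 ribosomal protein genes had one either, and 22 and 25 of these had shared intervals only. The share over all protein-coding genes was 2.36%, so 0 in lists of this size lies near that share.

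**Figure D4:**
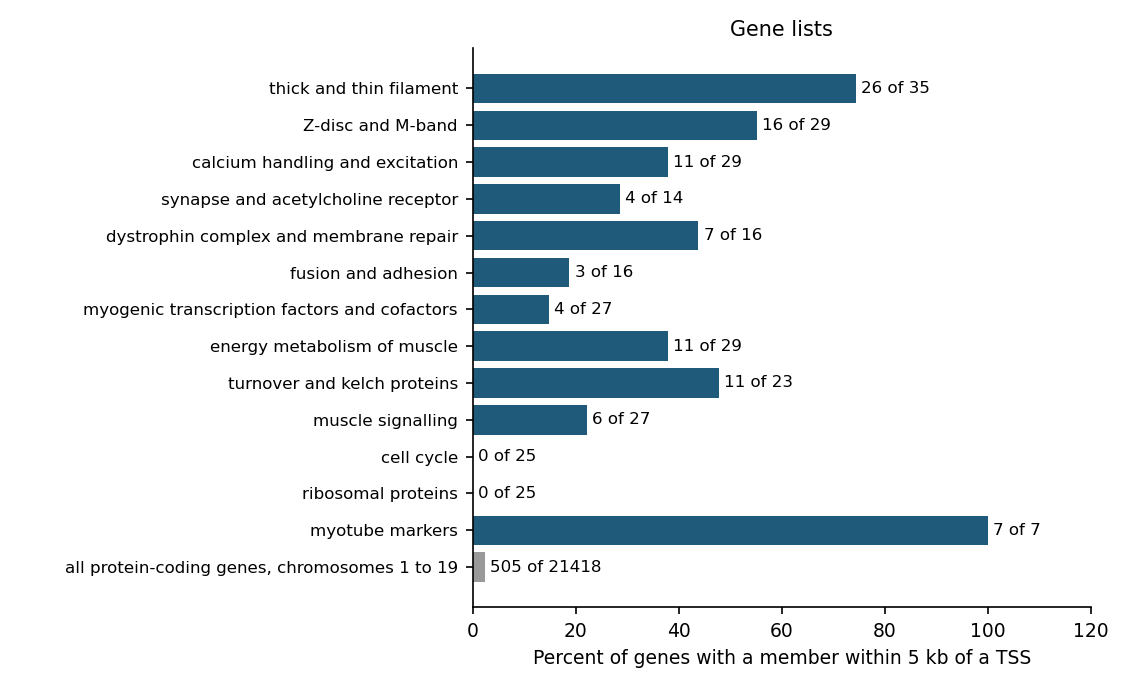
Genes of each list with a myotube-only region (member) within 5 kb of a TSS. Thick and thin filament genes had 26 of 35, while cell cycle and ribosomal protein genes had 0 of 25 each, and the share over all protein-coding genes was 2.36%.

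Among the 15 regions with most H3K4me3 reads, 4 were at genes outside the lists and 2 were distal. Lmo7, a LIM domain protein, had 15 and 379 H3K4me3 reads and 11 and 402 of H3K27ac. Fbxw7, the substrate receptor of a ubiquitin ligase, had 12 and 367 and 5 and 148. Filip1, which binds filamin, had 10 and 346 and 1 and 276. The distal region nearest to Nav2, a neuron navigator gene, had 15 and 357 H3K4me3 reads and 29 and 543 of H3K27ac, with a ratio of 7.13 (5.07–11.1). The one nearest to Gm12926 had 10 and 326, and 3 and 179 of H3K27ac, with a ratio of 17.7 (7.9–115). Of the next distal regions, those nearest to Fam167a (18 and 260 reads), Gpr142 (7 and 234) and A830052D11Rik (48 and 213), the Gpr142 region had 16 and 823 H3K27ac reads, with a ratio of 19.1 (12.4–35.6).

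The H3K4me3 library of myotubes held more signal at distal acetylated sites in general, also at those called in myoblasts. At the 16764 myoblast H3K27ac peaks farther than 5 kb from a TSS, pooled H3K4me3 was 4.52-fold over the mean in myoblasts and 5.31-fold in myotubes, and 8.6% overlapped a myoblast and 17.5% a myotube H3K4me3 interval. At the 26348 such peaks of myotubes, the values were 3.11-fold and 5.5-fold, and 5.04% and 15.6%. The part of this in the number of distal regions was not tested. Distal regions also had a lower H3K4me3 level and a higher H3K4me1 level than TSS regions, as given above.

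The marks did not move together in every region. Among regions with at least 30 reads of the mark in both libraries together, H3K27ac was lowest in myotubes relative to myoblasts at a region 68795 bp from the TSS of Gm17315, with 28 and 11 reads and a ratio of 0.163 (0.0694–0.32), though H3K4me3 went from 4 to 17. H3K4me2 was lowest at the region of A730056A06Rik, with 167 and 62 reads and a ratio of 0.338 (0.246–0.451), and H3K4me1 at the one nearest to 1200007C13Rik, with 178 and 43 and a ratio of 0.254 (0.174–0.35). The highest values were against no myoblast read: H3K27ac near Chi3l1 (0 and 274 reads, at least 35.9-fold higher), H3K4me2 near Adck3 (0 and 90, at least 27.1-fold) and H3K4me1 near Aqr (0 and 34, at least 11.7-fold). H3K27me3 had its highest ratio near Dclk1, 2.61 (1.37–5.57), with 14 and 27 reads. H3K36me3 was highest at Cav3, with 3 and 34 reads, and lowest near Cltc, clathrin heavy chain, with 49 and 5 and a ratio of 0.196 (0.0517–0.415).

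H3K36me3 over gene bodies, which the rule had not used, was higher in myotubes at most genes with a region at the TSS. Of 297 protein-coding genes with a region within 1 kb of a TSS, 24 were shorter than 3 kb, and 271 had at least 20 H3K36me3 reads in the body in both libraries together, measured from 1 kb after the TSS to the gene's end. Their median myotube to myoblast ratio was 2.76 (2.21–3.18), compared with 1.03 (1.02–1.04) over 14798 protein-coding genes that passed the same lower limits on length and reads. Of the 271, 164 (60.5%) were higher, compared with 7.45% of all, and 3 were lower, compared with 5.99%.

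Among the 5 highest ratios, Cav3 had 11 body reads in myoblasts and 139 in myotubes, with a ratio of 19 (11.2–42.2), Myh3 44 and 477, with 17.3 (13–24.7), and Unc45b, a myosin chaperone, 50 and 505, with 16.2 (12.3–22.5). The muscle GTPase gene Rrad was also among them, with 1 and 21 reads. The 3 lowest were Ppp3cb, a calcineurin subunit, with 495 and 137 reads and a ratio of 0.454 (0.371–0.546), Eef1a1, the translation elongation factor, with 106 and 30 and 0.472 (0.297–0.698), and Nck1, an adaptor protein, with 228 and 67 and 0.484 (0.359–0.632). All 3 had a myoblast H3K4me3 interval at a TSS besides the myotube-only region.

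The genes were then taken apart by that feature. The 197 genes without a myoblast H3K4me3 interval within 1 kb of any TSS had a median ratio of 4.12 (3.53–4.76) over the 171 with a value, of which 140 were higher. The 100 genes with such an interval had a median of 1.33 (1.11–1.55), with 24 higher. Dysf was among the latter, with 607 and 4006 reads and a ratio of 10.7 (9.88–11.7). This split was made after the first values had been seen.

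**Figure D5:**
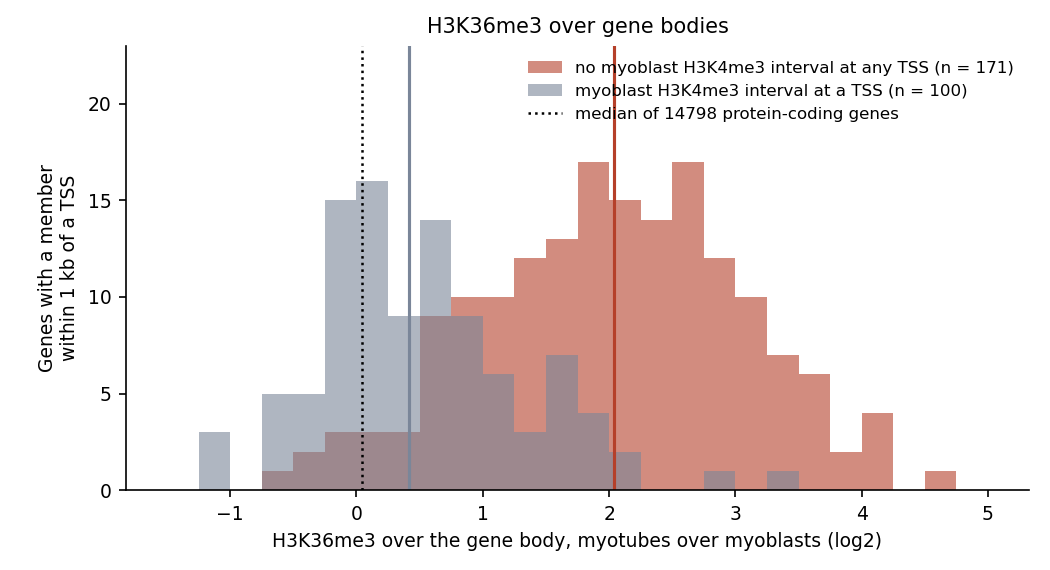
Ratio of H3K36me3 over gene bodies between myotubes and myoblasts, for genes with a myotube-only region within 1 kb of a TSS and for all protein-coding genes. The medians were 2.76 and 1.03, and genes without a myoblast H3K4me3 interval at a TSS (median 4.12) lay above those with one (1.33).

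E-boxes and MEF2 matches were more common in the regions than over all myotube intervals, and CArG boxes were not. In the central 300 bp, with both strands searched, CANNTG was found in 82.5% of myotube-only regions and 71.1% of all myotube H3K4me3 intervals, its form CAGCTG in 24% and 16.9%, and a MEF2 match in 6% and 3.16%. The CArG box was found in 1.36% and 1.44%. The GC box GGGCGG was found in 6.49% and 28.6%, and TATAAA in 17% and 10%. Base composition differed between these sets, with a median GC content of 47.3% and 53%, and its part in the shares was not tested. The myotube intervals that missed the rule, with a median of 47.3% as well, had CANNTG in 81.2%, CAGCTG in 20.8% and a MEF2 match in 5.13%, close to the myotube-only regions. The 191 intervals of the mirrored myoblast-only set had CAGCTG in 23% and a MEF2 match in 1.05%. Among distal intervals, CAGCTG was found in 24.4% of myotube-only regions and 19.9% of shared intervals, and a MEF2 match in 6.82% and 4.12%.

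Promoters were searched in the same way. For 229 protein-coding genes with a region at the TSS used, the window from 250 bases before to 50 after that TSS held CAGCTG in 33.6%, compared with 15.5% of 21418 protein-coding genes, and a MEF2 match in 13.1%, compared with 2.9%. The genes with shared intervals had 14.5% and 1.16%. A CArG match was found in 2.18% and 1.27% of all, TATAAA anywhere in 16.6% and 12.9%, and TATAAA on the gene's strand 45 to 15 bases before the TSS in 4.8% and 2.45%. GGGCGG was found in 30.1% and 45.1%, and the CpG ratio had a median of 0.283 and 0.582, while GC content was 55.3% and 56.7%. The Kbtbd10 and Mybph promoters printed above are among those with CAGCTG, and Acta1 is among those with a CArG match. A match of letters was counted without any measure of binding.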

How the data were processed

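Chromatin immunoprecipitation libraries for 6 histone marks, 1 per mark in C2C12 myoblasts and in myotubes, were analysed from the deposited files. The authors had amplified fragments of about 250 bp with 15 PCR cycles, aligned 34-bp reads to mm9 with Mosaik (1.0.1384), kept unique alignments and called intervals with MACS. The deposited read files list 1 read per line and were used as counts; the deposited interval files give a peak score, whose lowest value was 50. Settings of MACS and the treatment of duplicate reads are not given in the sources used here.

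Reads were extended to 150 bp and counted at their midpoint. Levels are midpoints per base over the library mean on chromosomes 1 to 19 and X (2555806925 non-N bases). Ratios of single regions and gene bodies, and the medians of these, add 1 read to each count. Pooled ratios add none, and all are scaled by total reads. Counting limits use the counts without the added read, so a ratio from few reads need not lie in the middle of its limits. Limits of medians are order-statistic limits at 95%. Counting intervals are conditional binomial limits at 95%; a count of 0 allows up to 3 reads, and neither covers variation between cultures. Positions are from GENCODE M1 on mm9; 1 base was enough for overlap.

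The regions and gene lists were chosen with earlier results of these data known. Named were the 15 regions with most myotube H3K4me3 reads, list genes with a region within 5 kb (at most 10 per list, of which a selection is printed), the 5 strongest distal regions, the extremes of each mark (at least 30 reads), the 5 strongest regions in a myoblast H3K27me3 peak, intervals beside the limits, and the 5 highest and 3 lowest gene bodies; 1 gene that this rule names is not reported here. Other limits, scalings, extensions, windows and peak scores were tried; the promoter window with its added letters, the pooled ratios and the split of genes by a myoblast interval were chosen after seeing the data. The counting and the rule were tested on simulated data. Counting used numpy 2.4.6 and pandas 2.3.3 in Python 3.11.15, limits scipy 1.17.1, and plots matplotlib 3.10.9. The authors' lists for H3K27ac and H3K27me3 in myoblasts were used by the mark whose reads they held.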

Additional observations from a re-analysis of the deposited data

Results flagged for a closer look

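Chromosome X lay outside the rule for the regions, and 19 of its 417 myotube H3K4me3 intervals met the same limits. The strongest was at Smpx, a small muscle protein, with 2 H3K4me3 reads in myoblasts and 291 in myotubes and with 0 and 167 H3K27ac reads, the latter at least 21.9-fold higher against a limit of 3 reads. Fhl1, a LIM domain protein of muscle, had 3 and 98 H3K4me3 reads, Itgb1bp2 (melusin) had 2 and 71, and the muscle kinase gene Srpk3 had 1 and 36. They are given here because they lie in data that the comparisons above did not use.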

How the results depend on the processing

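With 1 library per mark and cell type, no replicate could be left out. No paired analysis was possible because each group had 1 sample. Of 133 alternative values, 98 kept their direction and stayed within the range set for them, 31 moved and 4 reversed. The 1249 regions became 739 with a fold of at least 5, 518 with at least 30 reads and 663 with the libraries thinned to the smallest, of which 621 were among the 1249; under the 8 other settings they numbered 1010 to 1684. With 5 kb as the limit, 589 were near a TSS. Scaling by 10 kb windows outside peaks, where the myotube to myoblast ratio of H3K4me2 was 1.54, gave a median H3K4me2 ratio of 2.09, and scaling by shared intervals gave 6.88 for H3K27ac. Adding 5 reads in place of 1 gave 2.47 for H3K27ac and 1.17 for H3K27me3, which turned from below 1. TSS regions alone gave 1.63 for H3K36me3. Against a 200 kb local background, H3K36me3 fell to 0.787-fold in myoblasts and 0.634-fold in myotubes, and over 1 kb centred windows H3K27me3 was 1.02-fold in myotubes; these 3 crossed 1. The same 200 kb background lowered the medians in myoblasts and myotubes to 1.93-fold and 8.09-fold for H3K27ac, 2.51-fold and 6.82-fold for H3K4me2, and 3.1-fold and 3.55-fold for H3K4me1. The cause of these moves was not tested. Peak overlaps with a score of at least 100 were 513 for H3K4me1 in myotubes, 390 for H3K4me2, 10 for H3K27me3 and 75 for H3K36me3 in myoblasts, and 1 for H3K27me3 in myotubes. Requiring 50% of the region to be covered gave 148 for H3K4me1 in myotubes, 312 for H3K4me2, 280 for H3K27ac, 13 for H3K27me3 and 55 for H3K36me3 in myoblasts, and 0 for H3K27me3 and 83 for H3K36me3 in myotubes. With the myoblast lists taken by the sample they were filed with, 28 regions overlapped H3K27ac and 479 H3K27me3. Searching the whole region found CAGCTG in 914, MEF2 in 393 and CArG in 115. Depth limits single regions, with medians of 4 myoblast reads of H3K27me3 and 5 of H3K27ac per region.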

Other observations

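Some myotube-only regions were close together. Of the 1249, 364 (29.1%) had another within 20 kb, and 9 runs of at least 4 had gaps of at most 20 kb. The longest by number held 7 regions over 36.7 kb around Mir1a-1 and Mir133a-2 (chr2:180094879-180131534), with 22 H3K4me3 reads in myoblasts and 678 in myotubes. A run of 6 over 47.8 kb lay around Srsf3 and Cdkn1a (chr17:29188097-29235865, 43 and 268 reads), and a run of 5 over 31.6 kb between Macf1 and Gm12926 (chr4:123271297-123302887, 19 and 413 reads). Others of 4 lay at Myh3 (25 and 463 reads) and at Lmod3 (24 and 399 reads). Regions of a run are neighbours and not independent of each other. By chromosome, myotube-only regions made up from 4.9% of the myotube intervals of chromosome 9 to 9.38% of those of chromosome 10.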
